A study of Homo sapiens with 8 samples.

Results

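The BCL2 family decides whether the outer membrane of the mitochondrion is opened during apoptosis. Pro-survival members hold the pore-forming effectors in check, the effectors open the membrane and release cytochrome c, and the BH3-only members tip the balance by binding pro-survival proteins or by activating effectors. Several BH3-only genes are transcribed in response to stress, p53 and FOXO factors among others being known to act on them, and miRNAs are known to act on members of each class.

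Of the 43317 gene names on the arrays, 10 were examined here: BCL2, BCL2L1 and MCL1 (pro-survival), BAX and BAK1 (effectors), and BID, BIK, BBC3, PMAIP1 and BCL2L11 (BH3-only). They were chosen by name, with earlier results of these data known. All 15 of their probes, out of 58201, were followed on all 8 arrays. Each array carried labelled RNA of cells transfected with 1 mature miRNA (Cy5) beside that of mock cells from the same line (Cy3), which the labels also call untransfected. The cells were HCT116, a human colorectal cancer line, for the strands of miR-139 and miR-143, and PANC-1, a human pancreatic cancer line, for the miR-30 strands. Transfection used Lipofectamine RNAiMAX in every case, and neither the dose nor the time after transfection was given in the labels. There was 1 array per miRNA and no dye swap, so ratios to mock carry no test and no error between cultures, and any dye bias of a probe stays in its ratio. The number of arrays limits the precision.

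The 8 mature miRNAs, from RefSeq, are shown 5′ to 3′ because the strands of 1 precursor gave different values for the same members. The capitals mark the seed, bases 2 to 8.
miR-139-5p (HCT116): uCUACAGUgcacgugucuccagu
miR-139-3p (HCT116): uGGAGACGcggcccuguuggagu
miR-143-5p (HCT116): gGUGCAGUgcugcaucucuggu
miR-143-3p (HCT116): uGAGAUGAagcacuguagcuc
miR-30c-5p (PANC-1): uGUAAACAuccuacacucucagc
miR-30a-5p (PANC-1): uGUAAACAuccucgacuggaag
miR-30c-2-3p (PANC-1): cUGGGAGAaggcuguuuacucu
miR-30a-3p (PANC-1): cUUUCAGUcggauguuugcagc
Of the 8, miR-30a-5p and miR-30c-5p alone share a seed.

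All 8 arrays lay on 1 slide and were read in 1 scan, with the lines in different slide columns, so line and column cannot be told apart. The share of spots called well above background was 44.1% to 45.3% for Cy3 and 45.8% to 51.4% for Cy5, the highest Cy5 share being on the miR-30a-3p array, and none was saturated. Of 7 colon epithelial markers, 5 were higher in mock HCT116 cells. The log2 differences were 2.92 for CDH1, 4.31 for EPCAM and 1.22 for CDX2. They were only 0.15 for KRT20 and 0.003 for CDH17, the latter not well above background in any mock channel. CDX1 (-0.07) and LGALS4 (-0.35) went the other way, LGALS4 being well above background in all PANC-1 mock channels and in none of HCT116. Of 6 mesenchymal markers, 5 were higher in PANC-1 cells, VIM and ZEB1 among them, and FN1 was not well above background in any mock channel. Of 6 markers of other cells, COL1A2 and PECAM1 were not well above background in any mock channel, and COL1A1 and PTPRC were in all.

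To see which members differ between the mock cells of the lines, mock levels were compared as the log2 of the normalised Cy3 intensity. The 2 mock channels of a precursor were averaged, since the labels do not say whether they shared 1 RNA, which left 2 values per line. HCT116 cells had higher levels of 4 BH3-only genes, BIK, PMAIP1, BBC3 and BID, and no member was called higher in PANC-1 cells by its representative probe. Of the 10 members, 9 were tested and these 4 were called (limma, adjusted p under 0.05 over all probes), while 42.8% of all 25328 probes were called, 21.6% higher in HCT116 and 21.2% higher in PANC-1. Nothing says that the mock cells came from separate cultures, so these p-values may measure technical spread alone. The share of all probes without overlap between the lines is not given here. Where a lack of overlap is stated below, it only describes the levels.

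BIK, a BH3-only protein of the endoplasmic reticulum, differed most. Its mock levels in HCT116 cells were 8.77 and 8.74 beside miR-139 and 9.65 and 9.61 beside miR-143, and in PANC-1 cells they lay between 5.85 and 5.94. The lines did not overlap, and BIK was well above background in only 2 of the 4 PANC-1 mock channels, those of the miR-30a arrays. BIK thus entered the test only through HCT116, where it was high, so its p-value adds no support to the difference. The fitted difference was 3.29 on the log2 scale (SE 0.32, 9.80-fold, limma adjusted p = 0.00625, n = 2 per line), and 20.7-fold without background correction.

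PMAIP1 encodes NOXA, which binds MCL1. Its HCT116 mock levels were 9.28 and 9.17 beside miR-139 and 10.54 and 10.67 beside miR-143, against 7.01 to 7.27 in PANC-1 cells. All HCT116 levels stood above all PANC-1 levels, and the difference was 2.77 (SE 0.51, 6.83-fold, limma adjusted p = 0.023, n = 2 per line). The fold was 11.01 without the miR-139 mock cells and 4.23 without the miR-143 mock cells. BBC3 encodes PUMA, a BH3-only protein that binds every pro-survival member and is a known p53 target. Its mock levels were 9.19, 9.14, 9.80 and 9.86 in HCT116 cells and 7.84 to 7.92 in PANC-1 cells. The groups did not overlap, with a difference of 1.61 (SE 0.25, 3.06-fold, limma adjusted p = 0.0155, n = 2 per line).

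BID, which caspase-8 cleaves to link death receptors to mitochondria, was bright in both lines, at 10.98 to 11.06 in HCT116 cells and 10.58 to 10.72 in PANC-1 cells. Its difference was small, 0.37 (SE 0.07, limma adjusted p = 0.0207, n = 2 per line), and its second probe gave 0.28 with an adjusted p of 0.0587. BCL2L11, which encodes BIM, went the other way, at 7.77 to 7.88 in HCT116 cells and 8.38, 8.47, 7.94 and 7.92 in PANC-1 cells. The lines did not overlap, but the adjusted p was 0.218 for a difference of -0.34 (SE 0.19). A dimmer BCL2L11 probe, A_33_P3251932, was higher in PANC-1 cells, with a difference of -0.74 (SE 0.07, limma adjusted p = 0.00602, n = 2 per line), and the third, A_33_P3398526, gave -0.23 with an adjusted p of 0.124.

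The representative probes of the effectors and of BCL2L1 and MCL1 were not called between the lines. The differences were 0.27 (SE 0.18) for BAX, -0.06 (SE 0.11) for BAK1, 0.17 (SE 0.12) for BCL2L1, which encodes BCL-XL, and 0.00 (SE 0.08) for MCL1. Their adjusted p-values ran from 0.29 to 0.991, which does not show that the levels were equal. The BAX difference rested on which HCT116 mock was used, being 0.50 without the miR-143 mock and 0.05 without the miR-139 mock. The dimmer BAX probe, A_33_P3341144, went the other way, at -0.18 (SE 0.08, limma adjusted p = 0.129, n = 2 per line). That difference was -0.10 without the miR-143 mock and -0.26 without the miR-139 mock, so the direction for BAX depends on the probe. BCL2 itself was near background. Its representative probe had mock levels of 5.82 to 5.95 in HCT116 cells, 3 of the 4 channels being well above background, and was not well above background in any PANC-1 mock channel. The other BCL2 probe, A_23_P352266, was at least 1.11-fold higher in HCT116 cells (limma adjusted p = 0.0293, n = 2 per line). It was not well above background in any PANC-1 mock channel and entered the test only through HCT116. Its p-value therefore adds no support to the difference. Leaving out either PANC-1 mock mean gave 0 member calls, while 1925 and 2218 probes were still called overall. The folds moved little: 9.51 and 10.10 for BIK, 6.29 and 7.41 for PMAIP1 and 3.13 and 2.99 for BBC3, without the miR-30c and the miR-30a mock, while the total degrees of freedom fell from 3.74 to 2.55. The calls of the dimmer BCL2L11 probe (adjusted p = 0.0662 and 0.0673) and of the other BCL2 probe (0.174 and 0.15) were lost in the same way, and the latter also without the miR-139 mock (0.0569).

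**Figure D1:**
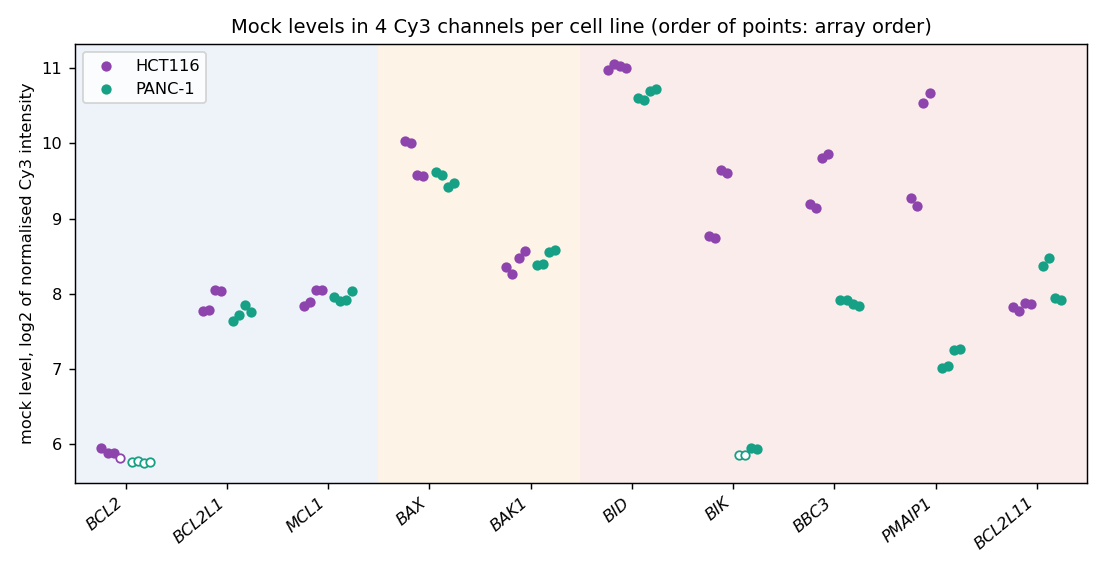
Mock level of each member (log2 of normalised Cy3 intensity) in the 4 mock channels of HCT116 and of PANC-1 cells, drawn in array order; open points were not well above background. BIK, PMAIP1 and BBC3 stand apart between the lines, and the miR-139 and miR-143 mock channels of HCT116 stand apart from each other for the same 3 genes.

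The mock cells of 1 line were not all alike. In HCT116 cells the PMAIP1 mean was 9.22 in the miR-139 mock cells and 10.60 in those of miR-143, a 2.60-fold difference that was larger than that of 99.7% of genes. BIK differed 1.83-fold and BBC3 1.59-fold in the same direction, and BAX differed 1.36-fold in the opposite direction, from 10.02 to 9.57. The BID means lay 0.0002 apart on the log2 scale. In PANC-1 cells the widest member was BCL2L11, 8.42 beside miR-30c and 7.93 beside miR-30a, 1.41-fold. The 2 channels of 1 precursor differed by at most 0.13 for any member's representative probe. These differences between mock cells of a line are used below as a yardstick for the size of the ratios.

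Among the ratios to mock, 4 of the 80 pairs of member and array were at least 2-fold from mock. The 80 include BCL2 with miR-30c-5p, miR-30c-2-3p and miR-30a-5p, where it was not detected and could not pass. All 4 pairs were pro-death genes, which make up 7 of the 10 members, with a 3p strand. BBC3 was higher and BID lower with miR-139-3p in HCT116 cells. BAK1 and BID were lower with miR-30c-2-3p in PANC-1 cells. The rule was a log2 ratio at least 1 from 0. With miR-139-3p, 2.1% of all detected genes were that far higher and 2.82% that far lower, and with miR-30c-2-3p 4.14% were lower and 1.71% higher. No member passed on the other 6 arrays. In HCT116 cells the shares of genes lower and higher there were 0.2% and 0.0587% (miR-139-5p), 1.0% and 0.356% (miR-143-5p) and 0.925% and 0.517% (miR-143-3p). In PANC-1 cells they were 0.445% and 0.747% (miR-30c-5p), 0.263% and 0.305% (miR-30a-5p) and 1.1% and 0.372% (miR-30a-3p).

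**Figure D2:**
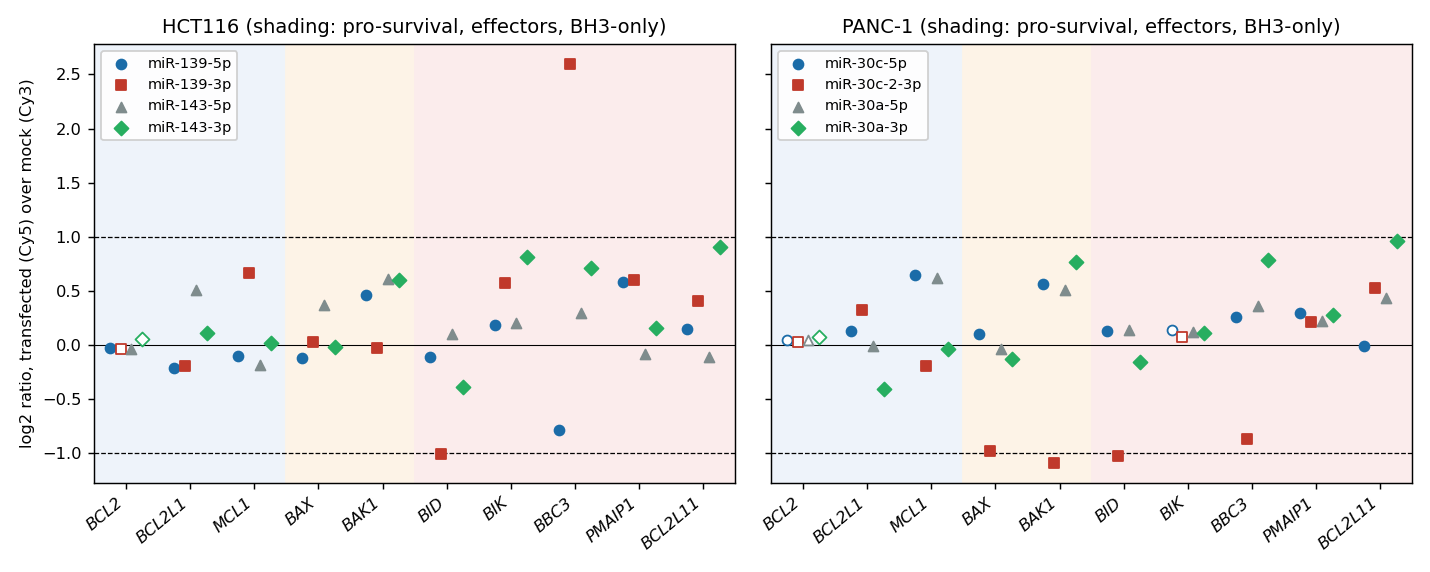
Log2 ratio of transfected over mock cells for the 10 members on the 4 HCT116 arrays (left) and the 4 PANC-1 arrays (right), 1 point per array. Dashed lines mark 2-fold, open points were not well above background in both channels, and shading separates pro-survival, effector and BH3-only genes; BBC3 with miR-139-3p lies at 2.60, and 4 pro-death genes lie between -1.09 and -0.87 with miR-30c-2-3p.

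BBC3 showed the widest range of any member. Its log2 ratios in HCT116 cells were -0.78 for the 5p and 2.60 for the 3p strand of miR-139, and 0.29 for the 5p and 0.71 for the 3p strand of miR-143. The strands of miR-139 therefore lay on opposite sides of mock, with transfected over mock spot intensities of 354 over 506 for the 5p strand and 3114 over 483 for the 3p strand. The value of 2.60, a 6.05-fold ratio, ranked 8 from the highest of 20718 detected genes on its array, and that of -0.78 ranked 108 from the lowest of 20454. The 3p value was far larger than the 0.67 between the mock means of the line, the 5p value only slightly so, and the miR-143-5p value was under it. In PANC-1 cells BBC3 was at 0.26 (miR-30c-5p), -0.87 (miR-30c-2-3p), 0.36 (miR-30a-5p) and 0.78 (miR-30a-3p). The miR-30c-2-3p array was the only one of the 4 below mock, and by the scanner's own log ratio its value was -1.18.

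The BBC3 probe was the only member probe with a match to the seed of the miRNA on any array. It holds CTGTAGA, the complement of bases 2 to 7 of miR-139-5p followed by A, searched on the transcript strand only, which 0.376% of all 58201 probes hold. The stretch of the probe is shown because BBC3 was below mock with that strand, with the match in capitals. It lies on the minus strand of hg19 at chr19:47724174-47724203.
BBC3 probe, 30 bases: tgtaagatactgtatatgcgctgCTGTAGA
Matches to bases 2 to 8, and to bases 2 to 7 followed by A, were sought for every miRNA in every member probe. Their shares over all probes ran from 0.168% to 1.19%. The share of this match alone therefore does not measure how rare a match in the search was. A probe covers 60 bases of a transcript, so the search says nothing of sites elsewhere, and the match is a description of letters.

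BID lay furthest below mock with miR-139-3p and miR-30c-2-3p, the arrays with the most genes past 2-fold. In HCT116 cells its log2 ratios were -0.11 and -1.0039 for the 5p and 3p strands of miR-139 and 0.10 and -0.39 for those of miR-143. In PANC-1 cells they were 0.13 (miR-30c-5p), -1.03 (miR-30c-2-3p), 0.14 (miR-30a-5p) and -0.16 (miR-30a-3p). The second, neighbouring BID probe read -0.68 with miR-139-3p and -0.85 with miR-30c-2-3p, lower than mock on the same arrays but under 2-fold. The call with miR-139-3p sat on the threshold, and neither the scanner's log ratio of -0.97 nor the value of -0.9956 after median centring passed. With miR-139-5p the probes lay on opposite sides of mock, the second at 0.06.

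BAK1, an effector held in check by MCL1 and BCL-XL, was above mock on 6 of 8 arrays. It was at 0.46 and -0.03 for the 5p and 3p strands of miR-139 and at 0.61 and 0.60 for those of miR-143. In PANC-1 cells it was at 0.57 and 0.51 for the guides of miR-30c and miR-30a and at 0.77 for miR-30a-3p, against -1.09 for miR-30c-2-3p. That value stood 1.70 below the mean of the other PANC-1 arrays, and the scanner's log ratio put it at -1.35. The other effector, BAX, is spotted 10 times as probe A_23_P208706, and the SD between its spots, which is technical, was 0.03 to 0.07. This probe read -0.12, 0.02, 0.37 and -0.02 in HCT116 cells, in the order used for BID, and 0.10, -0.98, -0.04 and -0.13 in PANC-1 cells.

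The value of -0.98 with miR-30c-2-3p was not shared by the second BAX probe, A_33_P3341144, which read -0.05 on that array. The files assign the probes to different BAX transcripts, at chr19:49464904-49464963 and chr19:49464454-49464513 on the plus strand of hg19. On the other 7 arrays the second probe lay between -0.12 and 0.35, and the first between -0.13 and 0.37.

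**Figure D3:**
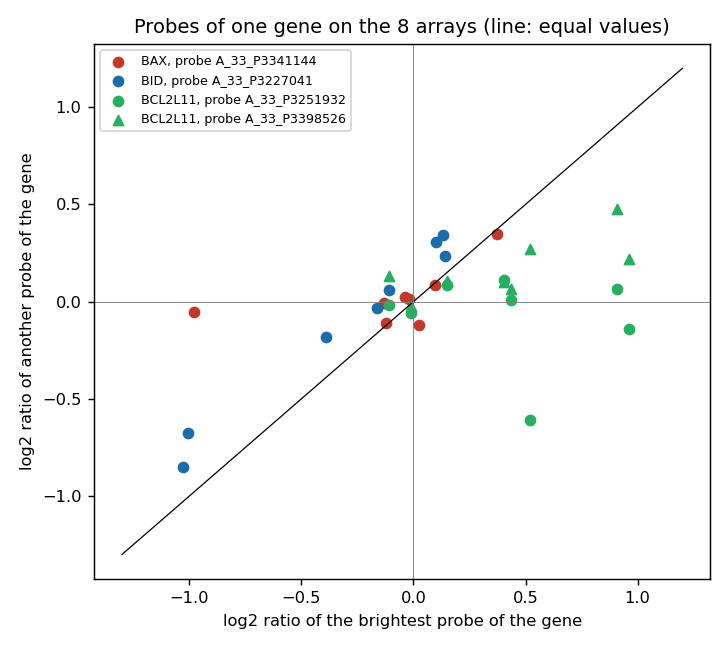
Log2 ratio of each further probe of BAX, BID and BCL2L11 against that of the brightest probe of the same gene, 1 point per array, with a line of equal values. The BID probes run together, BAX departs on the miR-30c-2-3p array (-0.98 against -0.05), and the BCL2L11 probes spread where its brightest probe is high.

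BCL2L11 lay highest with the 3p strands of miR-143 and of miR-30a. The brightest probe, A_24_P122921, read 0.15, 0.41, -0.11 and 0.91 in HCT116 cells, in the order used above, and -0.01, 0.52, 0.44 and 0.96 in PANC-1 cells. Both high values were just under 2-fold, and the scanner's log ratio put the miR-143-3p value at 1.15. The dimmer probe A_33_P3398526 was also highest with miR-143-3p, at 0.47 (0.91 by the scanner's log ratio), and read 0.22 with miR-30a-3p (0.26 by the scanner's). The third probe, A_33_P3251932, read 0.06 and -0.14 on these arrays. With miR-30c-2-3p, A_33_P3251932 was at -0.61 while the brightest probe was at 0.52. The 3 probes lie at chr2:111925892-111925951, chr2:111878705-111878764 and chr2:111886352-111886411 on the plus strand of hg19, so a gene-level statement about BCL2L11 depends on the probe.

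BIK and PMAIP1 were above mock on nearly all arrays, without a 2-fold value. BIK was at 0.19, 0.57, 0.21 and 0.82 in HCT116 cells, and each of these was smaller than the 0.87 between the mock means of that line. In PANC-1 cells it was at 0.12 and 0.11 for the 5p and 3p strands of miR-30a, and at least 1.102-fold and 1.051-fold higher with miR-30c-5p and miR-30c-2-3p, where its mock channel was not well above background. PMAIP1 was at 0.58, 0.60, -0.09 and 0.16 in HCT116 cells, all well under the 1.38 between mock means, and at 0.30, 0.21, 0.22 and 0.27 in PANC-1 cells.

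Among the pro-survival genes well above background in both channels, the largest ratios were those of MCL1, whose short-lived protein binds BAK1, BIM and NOXA. MCL1 was at 0.66 with miR-139-3p and at 0.65 (miR-30c-5p) and 0.62 (miR-30a-5p) with the guides that share a seed. On the other arrays it was at -0.10 (miR-139-5p), -0.19 (miR-143-5p), 0.02 (miR-143-3p), -0.20 (miR-30c-2-3p) and -0.03 (miR-30a-3p). With that pair BAK1 was at 0.57 and 0.51, BBC3 at 0.26 and 0.36, and BCL2L11 at -0.01 and 0.44. For the other 8 members detected on both arrays the values with the pair lay within 0.14 of each other. The gap of BCL2L11 was smaller than the 0.49 between its PANC-1 mock means, its transfected spot intensities were alike at 419 and 432, and its other probes read -0.02 and 0.06 (A_33_P3398526) and -0.06 and 0.01 (A_33_P3251932).

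BCL2L1 was at -0.21, -0.20, 0.50 and 0.11 in HCT116 cells, and at 0.13, 0.33, -0.01 and -0.41 in PANC-1 cells. It was above mock with miR-143-5p by more than the 0.27 between HCT116 mock means, and below mock with miR-30a-3p by more than the 0.13 between PANC-1 mock means. BCL2 was dim on all arrays. In HCT116 cells its representative probe lay between -0.04 and 0.05, at spot intensities of 23.6 to 29.2 beside a median spot of 22.9 to 23.9, and on 3 of the PANC-1 arrays it was not well above background in either channel. The other probe, A_23_P352266, well above background in all 4 HCT116 mock channels, was at least 1.119-fold lower with miR-139-3p, where its Cy5 signal was not well above background, and at -0.12 with miR-143-5p (-1.003 by the scanner's log ratio). Both were larger in size than the 0.05 between its mock means. The probe was dim, so that difference cannot tell whether either ratio was beyond the spread between mock cells. On the same arrays the representative probe read -0.04 (miR-139-3p) and -0.03 (miR-143-5p).

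The sides of the family were then set side by side as medians over the members detected on each array. The pro-survival median was -0.10 and the pro-death median 0.15 for miR-139-5p. The 3p strand of miR-139 gave -0.04 and 0.41. The strands of miR-143 gave -0.03 and 0.21 (5p) and 0.05 and 0.60 (3p). On the 4 HCT116 arrays the pro-death median was thus the higher one, by 0.24 to 0.55. Except with miR-139-5p, the pro-survival median there was the value of the dim BCL2 probe. MCL1 and BCL2L1 were at 0.66 and -0.20 on the miR-139-3p array, and at -0.19 and 0.50 on the miR-143-5p array. Requiring both channels well above background removed BCL2 on the 3p arrays. The pro-survival minus pro-death difference then went from -0.44 to -0.17 (miR-139-3p) and from -0.55 to -0.54 (miR-143-3p). Between the mock means of HCT116 cells, miR-139 minus miR-143, the same difference of medians was 0.04. That is 1 comparison, in which both medians moved together (-0.18 and -0.22) while PMAIP1 alone differed by 1.38. The median of all detected genes was 0.01 on each of the 4 HCT116 arrays. After the mean of the other arrays of the line was subtracted, the difference was -0.0228 for miR-139-5p and -0.12 for miR-139-3p, and it changed sign for both strands of miR-143. Arrays of a line may share mock RNA, so they cannot be taken as independent of each other.

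In PANC-1 cells the medians were 0.39 and 0.14 for miR-30c-5p, 0.31 and 0.22 for miR-30a-5p and -0.03 and 0.27 for miR-30a-3p. With miR-30c-2-3p they were 0.07 for 2 pro-survival members and -0.87 for 7 pro-death members, the widest gap of all 8 arrays at 0.94. BAX, BAK1, BID and BBC3 lay between -1.09 and -0.87 there, while BIK, PMAIP1 and BCL2L11 lay between 0.07 and 0.52. The gap was 1.17 by the scanner's log ratio and 0.58 with the median over all probes of a gene. The same difference between mock means of PANC-1 cells was -0.0025, in 1 comparison with both medians at -0.09. With the other arrays of the line subtracted, it was 0.86 for miR-30c-2-3p and turned to -0.0692 for miR-30a-5p.

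**Figure D4:**
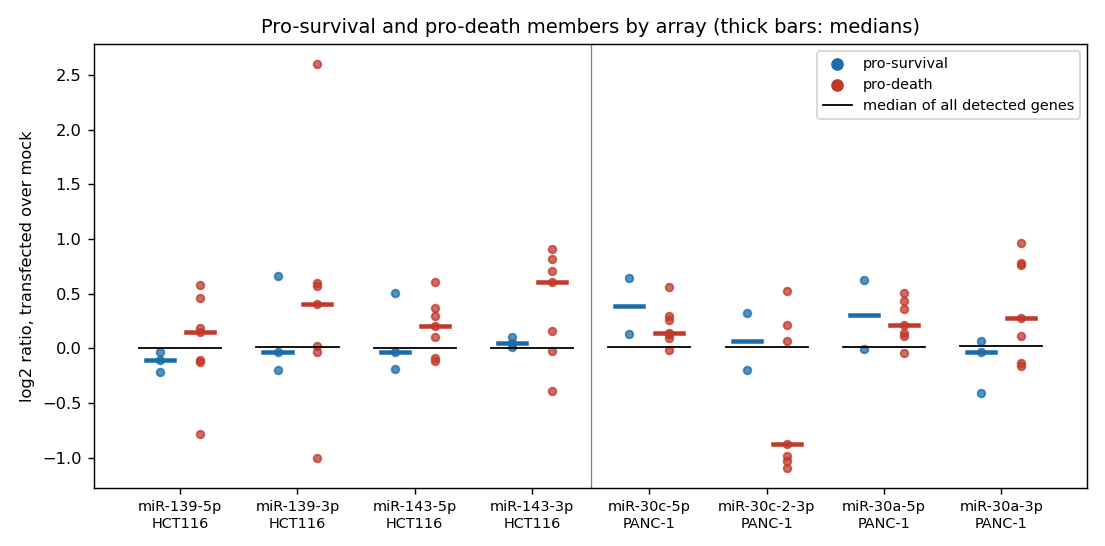
Log2 ratios of the detected pro-survival and pro-death members on each array (points), their medians (thick bars) and the median of all detected genes (thin black lines). The pro-death median is above the pro-survival one on the 4 HCT116 arrays and with miR-30a-3p, and 0.94 below it with miR-30c-2-3p.

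The calls on the miR-30c-2-3p array depended on the scale. Normexp with an offset of 50 compresses ratios at these intensities, and the scanner's log ratio was larger in size for 63 of 72 pairs of member and array with both channels well above background, with the same sign in 71. By that log ratio 4 members, BAX, BAK1, BID and BBC3, were at least 2-fold lower with miR-30c-2-3p, beside 11.8% of all detected genes. Median centring in place of loess shifted the median over all genes to as much as 0.30, on the miR-30a-3p array, and left 0 members 2-fold lower in PANC-1 cells. After the shifted median of that setting was taken off, BAK1 was at -1.01, BAX and BID at -0.85 and BBC3 at -0.81 with miR-30c-2-3p.

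**Figure D5:**
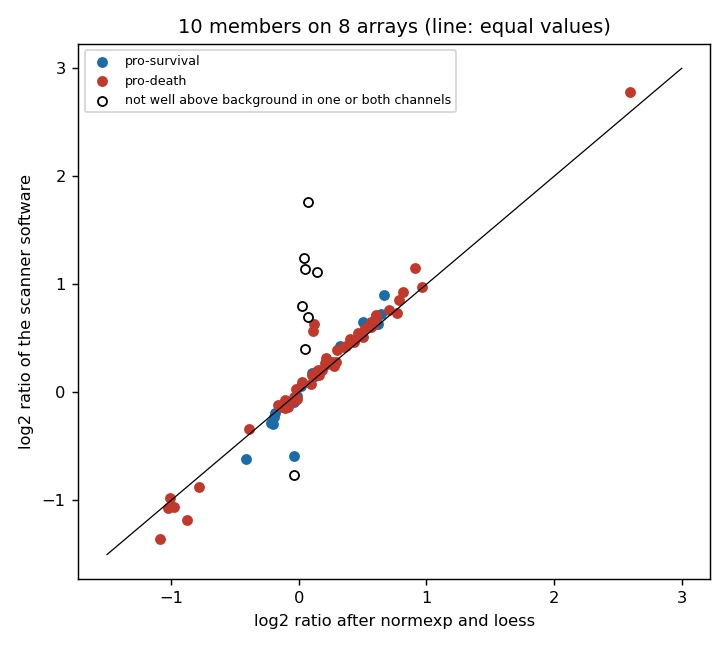
Log2 ratio of the scanner software against the log2 ratio after normexp and loess for the 10 members on 8 arrays, with a line of equal values. Filled points were well above background in both channels and lie near the line, mostly farther from 0 by the scanner; open points, BCL2 and BIK, spread widely by the scanner and lie near 0 after normexp.

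The rest of the pathway was followed in 4 lists written from general knowledge, but with earlier results of these data known. Among 13 other BCL2 family genes, of which 10 or 11 were detected, BAD, a BH3-only gene, was at -1.18 with miR-139-3p. BCL2A1, a pro-survival gene, was at -1.37 with miR-30c-2-3p, and BMF, a BH3-only gene, was at 1.11 with miR-30a-3p. No other gene of this list was 2-fold from mock, and its medians lay between -0.19 and 0.15.

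Among 15 apoptosome and caspase genes, all detected, BIRC3, an inhibitor of apoptosis protein, was at least 2-fold from mock on 6 arrays. It was at 1.35 and 1.40 for the 5p and 3p strands of miR-139, at 1.03 and 1.46 for those of miR-143, and at -3.18 (miR-30c-2-3p) and -1.87 (miR-30a-3p) in PANC-1 cells. CASP9, the initiator caspase of the apoptosome, was at 1.03 with miR-30c-2-3p, and BIRC2 was at -1.02 with miR-30a-3p. The list's medians lay between -0.06 and 0.24.

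Of 9 death receptor genes, all detected, TNFRSF10B and FAS, both cell surface receptors, were at 1.78 and 1.41 with miR-139-3p, and TRADD, an adaptor, was at -1.73 with miR-30c-2-3p. Of 12 genes listed as upstream regulators, 4 were at least 2-fold higher with miR-139-3p, beside 2.1% of all detected genes. Whether any of the 12 acted on the members here was not tested. The largest were TP53INP1 at 3.24, CDKN1A, the p21 cell cycle inhibitor, at 1.65, and MDM2, the ubiquitin ligase of p53, at 1.56. CDKN1A was also at 1.16 and 1.35 for the 5p and 3p strands of miR-143, and TP53INP1 at 1.41 with miR-143-3p. ATF4, a transcription factor of the stress response, was at -1.53 with miR-30c-2-3p. The median of the upstream list with miR-139-3p was 0.05, against 0.01 for all detected genes.

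For the 3 members past 2-fold, the genes with the most alike log2 ratios over the 8 arrays were sought among 2538 genes. The arrays of a line share a cell line and perhaps mock RNA, so these are descriptions. The r values are the highest of that search, and 1 far array can carry them. BBC3 stood far out at 2.60 with miR-139-3p, and BAK1 at -1.09 with miR-30c-2-3p. NMRAL1, PCK2 and CHCHD10 were most like BAK1 (Pearson's r 0.99, 0.99 and 0.98 over 8 arrays). STRA13, CCNE1 and UHRF1 were most like BID (r 0.97, 0.96 and 0.96). CDKN1C, lnc-PIGM-1 and APOE were most like BBC3 (r 0.96, 0.95 and 0.94).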

How the data were processed

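Human two-colour 60-base arrays were analysed, 4 per cell line. Per the file headers, the scanner software (Feature Extraction 11.5.1.1) gave the intensity of each spot in both channels and a log10 ratio of its processed Cy5 over Cy3 signals, and the authors deposited the same log10 values as their table. Here spot mean intensities were corrected by normexp with an offset of 50 and normalised by loess within arrays (control spots at weight 0) in R 4.3.3 with limma 3.58.1. Outlier spots were left out and spots of a probe averaged. A gene was represented by its brightest probe and counted as detected when well above background in at least 1 channel. Probe positions are those of the files, on hg19. Deposited log10 ratios were turned to log2 as an alternative.

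Mock Cy3 levels were quantile normalised, averaged within each precursor and compared between lines by limma, with Benjamini-Hochberg adjustment over 25328 probes that were well above background on all 4 channels of at least 1 line. The fits were tested on simulated data. For a probe not well above background in a whole group the fold is a lower bound against the dimmest signal called well above background, or the probe's own signal where higher. A list gene was named when at least 2-fold from mock on an array, at most 3 per array and list (a result of the apoptosome and caspase list is not reported here), and the 3 most alike genes were taken by Pearson's r among genes 2-fold from mock on some array whose channels were all well above background. The members and lists were chosen with earlier results of these data known. No column of the deposited table was left without a sample. Alternatives were no background correction, the scanner's log ratio, median centring, the median over probes, both channels above background, subtraction of the other arrays, and for mock levels another scaling, no filter, a random block and leaving out a precursor. Tables and plots were made in Python 3.11.15 with pandas 2.3.3, numpy 2.4.6, scipy 1.17.1 and matplotlib 3.10.9.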

Additional observations from a re-analysis of the deposited data

How the results depend on the processing

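No paired analysis was possible because each miRNA had 1 array and the labels give no replicate numbers that pair groups. In HCT116 cells the 1 member 2-fold lower was lost by the scanner's log ratio, with median centring and with the median over probes. With the other arrays subtracted the count was still 1, but through BBC3 with miR-139-5p (-1.98). BID with miR-139-3p (-0.87) no longer passed there. The count of higher members went from 1 to 2 without background correction and by the scanner's log ratio. In PANC-1 cells the 2 lower members became 4 without background correction and by the scanner's log ratio, and 3 with the other arrays subtracted. They became 1 with the median over probes and 0 with median centring. The 0 higher members became 2 by the scanner's log ratio and 5 with median centring. The pro-survival minus pro-death difference became -0.79 (scanner) and -0.12 (other arrays subtracted) for miR-139-3p, and 0.29 for the 5p and 0.0716 for the 3p strand of miR-143 (other arrays subtracted). It became 1.11 (no background correction), 1.17 (scanner) and 0.58 (median over probes) with miR-30c-2-3p and -0.12 (scanner) with miR-30a-5p. With miR-30a-3p it became -0.65 (scanner), -0.66 (median centring), -0.50 (both channels above background) and -0.57 (other arrays subtracted). The cause was not tested. Of 457 values of single members on arrays under an alternative, 372 moved by less than the spread between mock cells of the line and 85 by more. Part of the 372 could not move. These were all values with both channels above background, and those of the median over probes for members with 1 probe. The count therefore overstates how stable the values were.

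Leaving out 1 precursor's mock cells gave 0 to 5 member calls, 5 without miR-143 (BAX gained) and 0 without either PANC-1 precursor, where the lone mean was assumed to vary like the other line. The BID mock call was lost with 75th percentile scaling (adjusted p = 0.0777) and the PMAIP1 call without the filter on dim probes (adjusted p = 0.0667). The mock difference of MCL1 changed sign to -0.0734 with 75th percentile scaling and -0.0017 without background correction, and ranged from -0.0895 to 0.0923 when 1 precursor's mock was left out, being negative without miR-143 or miR-30c. That of BAK1 ranged from -0.169 to 0.052, being positive without miR-139 or miR-30a. Neither gene was called under any of these settings. Low signal over background limits BCL2 on all arrays and BIK in PANC-1 cells.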
